A study of Rattus norvegicus with 32 samples.

Results

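The genes described here are 10 genes of antigen presentation, out of the 28914 genes counted in each sample. They were taken by name from the count files: B2m, Cd74, RT1-Da, RT1-Ba, RT1-Bb, RT1-Db1, Tap1, Tap2, Psmb8 and Psmb9. They were followed in 32 RNA-seq samples from adult male Sprague-Dawley rats. The regions were the NAc (nucleus accumbens), the DG and CA of the hippocampus (dentate gyrus and Ammon's horn) and the SVZ (subventricular zone). The METH groups received methamphetamine (10 mg/kg, intraperitoneal) in 4 injections given 2 h apart, and the saline groups (Sal) received saline on the same schedule. Rats were killed 24 h after their last dose, and each region had 4 METH and 4 saline samples, such as NAc Sal 1. The study asked how a neurotoxic METH binge changes gene expression in these regions. No allele or agent other than METH or saline is given in the labels, and all rats were male, so females were not examined.

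Cells show peptides to T cells on 2 kinds of major histocompatibility complex (MHC) molecules. Class I molecules pair a heavy chain with beta-2 microglobulin, encoded by B2m, and are loaded with peptides that the immunoproteasome subunits Psmb8 and Psmb9 help to cut and that the transporter made of Tap1 and Tap2 brings into the endoplasmic reticulum. Class II molecules of the rat are pairs of an alpha and a beta chain, RT1-Ba with RT1-Bb (the counterpart of human HLA-DQ) and RT1-Da with RT1-Db1 (the counterpart of HLA-DR), held by the invariant chain Cd74 until a peptide is bound. In the brain, class II is known from macrophages at the borders of the tissue, from dendritic cells and from reactive microglia, and is low in resting microglia, while B2m is made by most cells.

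The class II genes are switched on together through promoter boxes named X and Y. The RFX and NF-Y complexes bind these boxes and recruit the co-activator Ciita. B2m, Tap1 and the immunoproteasome genes answer to interferons and NF-kB, among other routes. Short stretches of promoters are shown for the 4 chain genes, which moved together with Cd74 across the samples. All 4 held the Y box upstream of their starts, and all but RT1-Ba the X box. In the Cd74 promoter neither box was found by the letters searched. Whether the letters bear on the shared movement was not tested. The stretches are from RefSeq (build GRCr8, not the build of the counts). They are written along the gene, with the X box, Y box and cyclic AMP element in capitals. The X box was searched as AG, any 2 bases, AC, any base and GATG, the Y box as CTGATTGG and the cyclic AMP element as TGACGTCA. The stretches lie at chr20:4515320-4515382 (plus strand) for RT1-Da, chr20:4560226-4560287 (minus strand) for RT1-Db1, chr20:4604163-4604224 (minus strand) for RT1-Bb and chr20:4576976-4577030 (plus strand) for RT1-Ba.
RT1-Da: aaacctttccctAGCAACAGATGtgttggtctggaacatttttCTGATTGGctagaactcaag
RT1-Db1: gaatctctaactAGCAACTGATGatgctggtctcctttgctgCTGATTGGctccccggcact
RT1-Bb: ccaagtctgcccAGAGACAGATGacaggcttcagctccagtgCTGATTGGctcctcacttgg
RT1-Ba: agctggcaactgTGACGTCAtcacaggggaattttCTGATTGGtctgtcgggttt
The X and Y boxes stood 20 bases apart in RT1-Da and 19 bases apart in RT1-Db1 and RT1-Bb. The promoter of RT1-Ba held the Y box and, upstream of it, the cyclic AMP element, but no X box of these letters. Among 33469 RefSeq promoters of the same length, searched on both strands, 0.95% held the X box, 3.5% the Y box, 1.83% the cyclic AMP element and 0.0239% (8 promoters) both X and Y boxes. The other promoters with both boxes were those of RT1-Db2, Adamts7, Glul, Slc4a5 and LOC120097750.

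On the class I side, the promoters of B2m (chr3:129549168-129549214, plus strand) and Tap1 (chr20:4668577-4668676, minus strand) each held an interferon-stimulated response element (ISRE, GAAA and GAAA with any 2 bases between them) and an NF-kB site (GGGA, any base and TTTCC). They are shown because B2m and Tap1 were the class I members with the largest differences in the NAc, and both sites are in capitals, on either strand.
B2m: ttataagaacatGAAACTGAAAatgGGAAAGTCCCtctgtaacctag
Tap1: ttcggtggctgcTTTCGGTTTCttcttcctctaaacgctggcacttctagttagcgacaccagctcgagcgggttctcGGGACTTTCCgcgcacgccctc
The ISRE letters were found in 3.92% and the NF-kB letters in 0.362% of all promoters. The ISRE letters were also found in the promoters of Tap2 and Psmb8, and the Y box letters 19 bases after the start of Psmb9. All 10 members were matched to a promoter, and a match is a description of letters, not of a bound site.

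Samples held 11094002 to 21869773 counted reads (median 14533166.5). Levels are in CPM, which scales the reads of a gene by the depth of its sample (set by edgeR's upper-quartile method), and 1 read was worth 0.0460 to 0.0940 CPM. Whether each sample came from a separate animal is not stated sample by sample, so p-values measure only the spread between samples, which may be technical in part. In the SVZ the 4 METH samples carry 2 library numbers, 1669 and 1670. The headers also carry marks that were read as sequencing runs, JJ, RNA2 and RNA3. Headers of the NAc, DG and CA with neither JJ nor RNA3 were taken as RNA2, except CA Sal 1 and 2, marked as merged. By this reading METH 3 and 4 of the NAc, DG and CA were in 1 run (RNA2), together with CA Sal 3. The NAc and DG had no saline sample in that run. The SVZ samples were treated as 1 run by their region, not by a mark. The labelled regions were checked against their markers. The summed CPM of 5 markers of striatal medium spiny neurons (Ppp1r1b, Drd1, Drd2, Rgs9 and Adora2a) was 85.8 in the library labelled NAc METH 3, against 872 or more in the other NAc samples, and 1022 in the library labelled DG Sal 3, against 213 or less in the other DG samples. These 2 libraries go against their labels in that respect, and the class II results of the NAc and DG are also given without them. Dentate granule markers summed to between 97.2 and 511 CPM in DG samples and between 116 and 550 CPM in CA samples, so these markers did not separate the regions. Nor did the 4 CA pyramidal markers, which summed to 547 to 685 CPM in CA samples and 257 to 1342 CPM in DG samples. DG METH 2 and 4, at 1342 and 1167 CPM, and NAc METH 2, at 1001 CPM, stood above every CA sample in these markers. Ttr, the transthyretin gene that is abundant in the choroid plexus, was above 100 CPM in 8 samples: DG Sal 2 and 4, DG METH 3, CA Sal 2, CA METH 2, SVZ Sal 1 and 3 and SVZ METH 3.

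Of the 10 members, 9 were measurable. Per kilobase of exon, B2m was the most abundant, with a mean of 73.4 CPM per kb over the 16 saline samples, followed by Cd74 at 6.01, while RT1-Da stood at 0.637 and RT1-Bb, the lowest of the measurable class II chains, at 0.0825. All reads of RT1-Bb numbered 301 over the 32 samples and those of RT1-Ba 601, so single samples often held fewer than 10 reads of them. In rn6, the build of the counts, B2m lies at chr3:114087287-114093309 and Cd74 at chr18:56071478-56080849. The other members lie on chromosome 20, in the MHC. Psmb9 (chr20:3973420-3978845, minus strand) and Tap1 (chr20:3979035-3989669, plus strand) stand head to head, and Psmb8 (chr20:3990613-3993769) follows. The chains are at chr20:4039413-4049711 (RT1-Bb), chr20:4066132-4070721 (RT1-Ba), chr20:4087618-4097190 (RT1-Db1) and chr20:4127644-4132616 (RT1-Da), and Tap2 is at chr20:5198258-5212624. Values are counts over exons. The authors' counting used no strand and dropped reads of low mapping quality, so counts of RT1 genes, which are close paralogs, are uncertain.

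Tap2, which forms the peptide transporter with Tap1, had 2 reads in all, 1 in NAc METH 1 and 1 in CA Sal 1, against 2185 reads of Tap1. Other genes of the MHC were near 0 as well, with 8 reads of RT1-DMa and 10 of RT1-DMb, the chains that exchange peptides on class II, which are named after their values were seen. The level of Tap2 could therefore not be measured in these counts, and the cause was not tested.

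In the NAc, the class II genes were higher in METH samples by their means, but no member passed the call rule (FDR under 0.01 and a fold change above 1.5). Cd74 was at 4.45, 4.54, 2.44 and 3.81 CPM in NAc Sal 1 to 4 and at 5.17, 4.73, 12.2 and 20.1 CPM in NAc METH 1 to 4. The groups did not overlap, but METH 1 and 2 lay just above the saline samples and METH 3 and 4 stood far above both. METH was higher by 1.49 ± 0.47 on the log2 scale (edgeR log2 fold change ± SE, FDR = 0.999, n = 4 per group). As these are bulk samples, more cells that carry Cd74 and more Cd74 RNA per cell cannot be told apart. RT1-Ba, the alpha chain of the RT1-B molecule, had 0, 0, 1 and 2 reads in NAc Sal 1 to 4 and 10, 5, 18 and 44 reads in NAc METH 1 to 4. Here too every METH sample stood above every saline sample, METH 1 and 2 included. RT1-Ba did not pass the filter on low counts in the NAc. An exact two-sided permutation test of its mean CPM (1.39 ± 1.09 in METH against 0.0585 ± 0.0718 in saline, SD, n = 4) gave p = 0.0286, the smallest that 4 against 4 samples allow. The ratio of reads, 77 in METH to 3 in saline, was 26.5 with a 95% interval of 8.75 to 132, which covers counting error only. Fitted by edgeR without the filter, RT1-Ba differed by 4.43 ± 0.88 on the log2 scale (FDR = 0.929), and DESeq2 gave an FDR of 0.061.

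**Figure D1:**
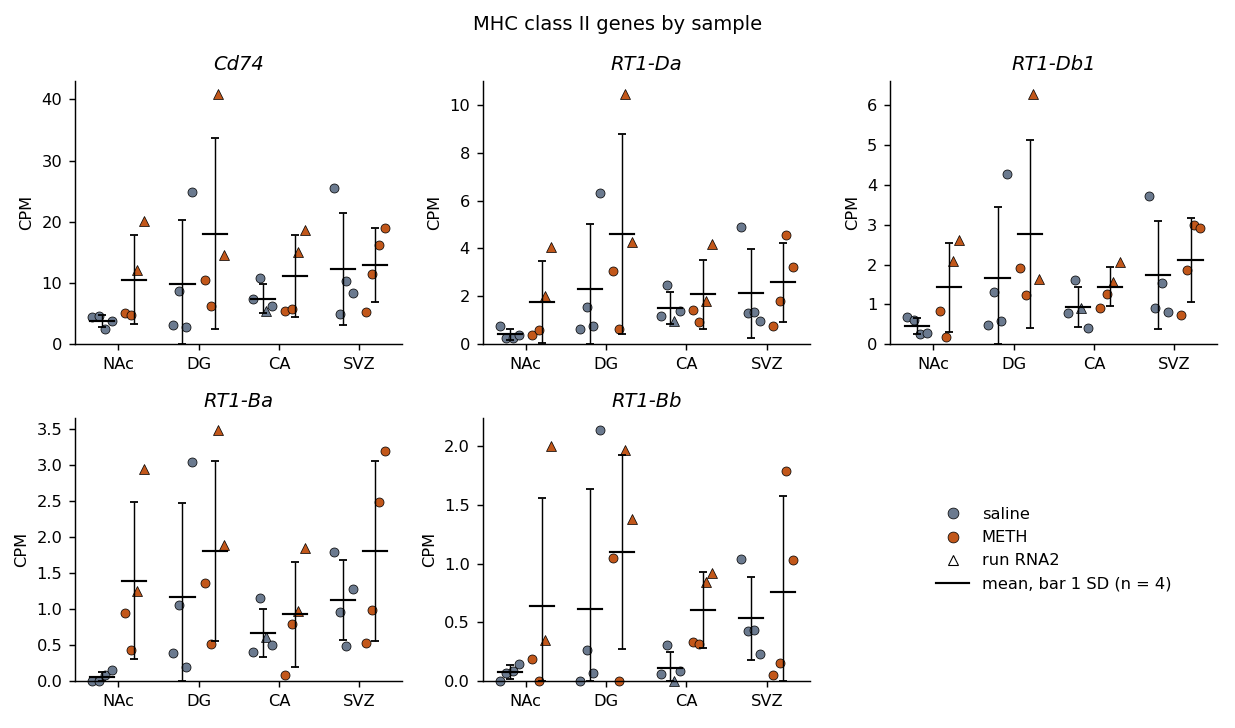
CPM of Cd74, RT1-Da, RT1-Ba, RT1-Bb and RT1-Db1 (1 panel each) by region, with saline samples in grey and METH samples in orange; each point is 1 sample, triangles are samples of run RNA2, the line is the group mean and the bar 1 SD (n = 4), ending at 0 where it would pass below. In the NAc, METH 3 and 4 stand above the 6 other samples in every panel, while in the DG and SVZ the groups overlap in every panel.

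The other class II chains of the NAc were high in METH 3 and 4 only. RT1-Da, the alpha chain of the RT1-D molecule, was at 2.02 and 4.08 CPM in these samples, against 0.261 to 0.754 CPM in the 6 others. RT1-Db1, its beta chain, was at 2.09 and 2.61 CPM against 0.172 to 0.846 CPM, and RT1-Bb, the beta chain of RT1-B, was at 0.348 and 2.01 CPM against 0 to 0.188 CPM. The METH and saline groups overlapped for all 3 chains, and none of them passed the filter on low counts. The exact permutation p was 0.171 for RT1-Da, 0.2 for RT1-Bb and 0.171 for RT1-Db1 (two-sided, n = 4 per group). Without NAc METH 3 the ratio of mean CPM of METH to saline on the log2 scale was 2.03 for RT1-Da, 3.28 for RT1-Bb and 1.40 for RT1-Db1, against 2.10, 3.08 and 1.64 with it, and without METH 3 and 4 it was 0.25, 0.32 and 0.15.

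Of the 10 members, 5 passed the filter in the NAc, and 0 were called by edgeR, as were 0.0% of 14771 genes tested. Of these 5, 3 (Cd74, B2m and Tap1) had an unadjusted p under 0.05, all with higher values in METH, against 3.39% of all genes (2.42% with higher values). DESeq2 called 1 gene in the NAc, which was not a member, and had 7 members at an unadjusted p under 0.05, against 2.78% of all genes by it. These 7 include the 4 chains that did not pass the filter and had few reads in saline samples. Of all genes, 1.35% had every METH sample above every saline sample, as Cd74 and RT1-Ba did. Without NAc METH 3, the library with few striatal markers, Cd74 was 1.41 higher on the log2 scale in METH (edgeR FDR = 0.944) and the ratio of mean CPM of RT1-Ba was 4.62 on that scale (exact permutation p = 0.0286, the smallest that these sizes allow). Without NAc METH 4 the values were 0.96 for Cd74 and 3.90 for RT1-Ba. Without both, Cd74 was 0.38 higher and 0 members had an unadjusted p under 0.05 (3.04% of all genes), while the ratio of RT1-Ba was 3.55, from 15 reads in METH 1 and 2 against 3 in saline (exact permutation p = 0.0667, the smallest that 2 against 4 samples allow). Within run RNA3, which holds NAc Sal 3 and 4 and METH 1 and 2, Cd74 was at 2.44 and 3.81 CPM against 5.17 and 4.73 CPM, and with the run as a covariate the log2 difference was 0.66, no longer at an unadjusted p under 0.05. RNA2 holds METH samples only in this region, so that run and METH cannot be told apart for METH 3 and 4.

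In the DG, the class II genes were about as high in single saline samples as in METH samples. Cd74 was at 3.21, 8.74, 2.73 and 24.9 CPM in DG Sal 1 to 4 and at 10.5, 6.28, 41.0 and 14.6 CPM in DG METH 1 to 4. The highest sample of each group, Sal 4 and METH 3, were the DG samples highest in Ttr, at 1803 and 5378 CPM, and the part of that tissue in the result was not tested. For Cd74 the log2 fold change was 0.87 ± 0.81 (edgeR FDR = 0.731). RT1-Da was at 0.627, 1.57, 0.763 and 6.33 CPM in saline and at 3.07, 0.650, 10.5 and 4.27 CPM in METH. The groups overlapped for all 5 class II members, whose log2 fold changes lay between 0.66 for RT1-Ba and 1.00 for RT1-Da, each close to or below its SE.

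Of the members, 9 were tested in the DG, and 0 were called, as were 0.0% of 14800 genes, and 0 had an unadjusted p under 0.05, against 12.8% of all genes. DESeq2 called 176 genes in the DG and no member, with 0 members at an unadjusted p under 0.05. Without DG Sal 3, the library with striatal markers, the difference of Cd74 was 0.56 (edgeR FDR = 0.817) and those of the chains lay between 0.29 for RT1-Ba and 0.70 for RT1-Da. Without DG Sal 4 that of Cd74 was 1.91 (FDR = 0.369). In that fit 4 members, all of class II, had an unadjusted p under 0.05, against 12.2% of all genes. Without the samples above 100 CPM of Ttr (Sal 2, Sal 4 and METH 3) the difference of Cd74 was 1.82 (FDR = 0.365). There 3 members had an unadjusted p under 0.05, against 10.4% of all genes. In both fits the saline samples left held at most 12 reads of RT1-Ba and 3 of RT1-Bb. These chains passed the filter mainly through METH samples, so both counts are a description. Without METH 3 and 4 the difference of Cd74 was -0.24, and those of the other class II members were between -0.31 and -0.073. Run JJ holds DG Sal 3 at 2.73 CPM beside METH 1 and 2 at 10.5 and 6.28 CPM, and the other runs of the DG hold 1 treatment each.

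In the CA, METH 3 and 4 again had the highest Cd74. The values were 7.33, 10.8, 5.46 and 6.26 CPM in CA Sal 1 to 4 and 5.35, 5.68, 15.03 and 18.6 CPM in CA METH 1 to 4. METH 1 and 2 lay at the lower end of the saline samples and METH 3 and 4 above all of them. This region has a saline sample in run RNA2, Sal 3 at 5.46 CPM, below METH 3 and 4 of the same run. In run RNA3 the order was the other way, with Sal 4 at 6.26 CPM above METH 1 and 2. The log2 fold change over the 8 samples was 0.59 ± 0.42 (edgeR FDR = 0.759), and 0.70 (FDR = 0.9) with the run as a covariate. Without METH 3 and 4 it was -0.44.

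RT1-Bb was the CA member whose groups did not overlap. It had 1, 4, 0 and 1 reads in CA Sal 1 to 4 and 4, 4, 13 and 13 reads in CA METH 1 to 4, which is 0 to 0.307 CPM against 0.315 to 0.923 CPM. METH 2 lay only just above Sal 2, with the same number of reads. The gene did not pass the filter. The ratio of its mean CPM was 2.44 on the log2 scale, with an exact two-sided permutation p of 0.0286, again the smallest possible, and edgeR without the filter gave 2.46 ± 0.75 (FDR = 0.765). Of all CA genes, 2.57% had every METH sample above every saline sample. Of 8 members tested in the CA, 0 were called (0.0% of 14612 genes) and 0 had an unadjusted p under 0.05 (7.16% of all genes). DESeq2 called 10 genes, none a member, with 1 member at an unadjusted p under 0.05. The log2 fold changes of RT1-Da, RT1-Ba and RT1-Db1 were 0.50 ± 0.48, 0.52 ± 0.64 and 0.64 ± 0.40.

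**Figure D2:**
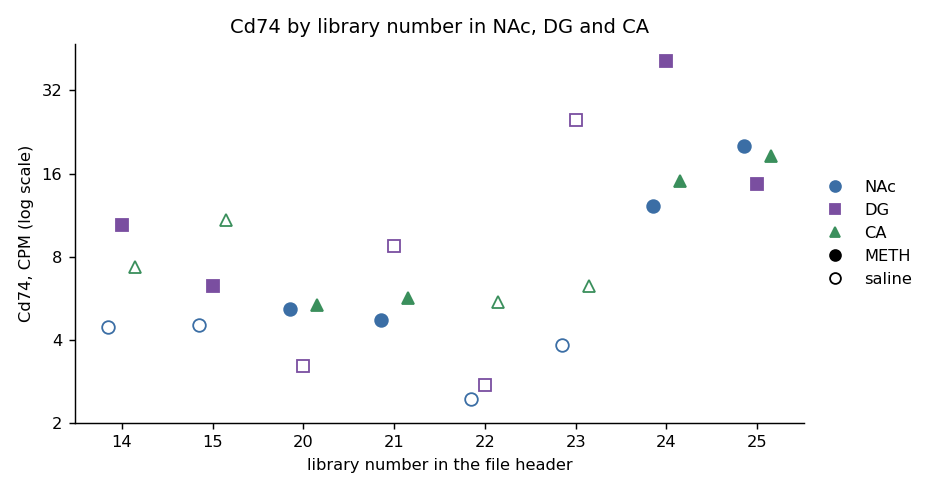
CPM of Cd74 on a log2 axis by library number in the NAc (circles), DG (squares) and CA (triangles), with METH samples filled and saline samples open. Library numbers 24 and 25, METH in all 3 regions, hold 12.2 to 41.0 CPM, while numbers 20 and 21, METH in the NAc and CA and saline in the DG, hold 3.21 to 8.74 CPM.

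The library numbers in the headers recur across the NAc, DG and CA. Numbers 22 and 23 are saline and 24 and 25 METH in all 3 regions. Numbers 14 and 15 are saline in the NAc and CA and METH in the DG, and 20 and 21 the reverse. The labels of DG replicates 1 and 2 thus give the treatment opposite to that of the NAc and CA under the same numbers. Whether a number marks 1 animal in the 3 regions is not stated, so it cannot be told whether these DG labels are exchanged, and samples were grouped by their labels. Without DG replicates 1 and 2 of both treatments the DG difference of Cd74 was 1.01 (edgeR FDR = 0.875), and those of the chains were between 0.64 and 1.06. Under numbers 24 and 25 Cd74 was at 12.2 and 20.1 CPM (NAc), 41.0 and 14.6 CPM (DG) and 15.03 and 18.6 CPM (CA). These 6 samples were above every saline sample of their region except DG Sal 4, which lay above METH 4. Under numbers 20 and 21 it was at 5.17 and 4.73 CPM (NAc METH), 3.21 and 8.74 CPM (DG saline) and 5.35 and 5.68 CPM (CA METH). Run, library number and treatment overlap here and cannot be told apart.

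In the SVZ, Cd74 was at 25.5, 4.90, 10.3 and 8.36 CPM in saline samples 1 to 4 and at 5.27, 11.4, 16.2 and 19.1 CPM in METH samples 1 to 4. The highest value was that of a saline sample and the groups overlapped over most of their range. On the log2 scale METH differed by 0.089 ± 0.55 (edgeR FDR = 0.992). RT1-Ba was at 1.79, 0.951, 0.482 and 1.27 CPM in saline and at 0.533, 0.982, 2.48 and 3.19 CPM in METH (log2 fold change 0.69 ± 0.61, FDR = 0.979). All SVZ samples were treated as 1 run. Within METH, the samples of library number 1670 (METH 3 and 4) had more Cd74 than those of 1669 (METH 1 and 2). Of 8 members tested in the SVZ, 0 were called (0.0% of 15579 genes) and 0 had an unadjusted p under 0.05, against 2.58% of all genes. DESeq2 called 2 genes, none a member, and 0 members had an unadjusted p under 0.05 by it. The difference of Cd74 was 0.73 without SVZ Sal 1, and -0.041 without SVZ METH 3, which held 7405 CPM of Ttr.

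**Figure D3:**
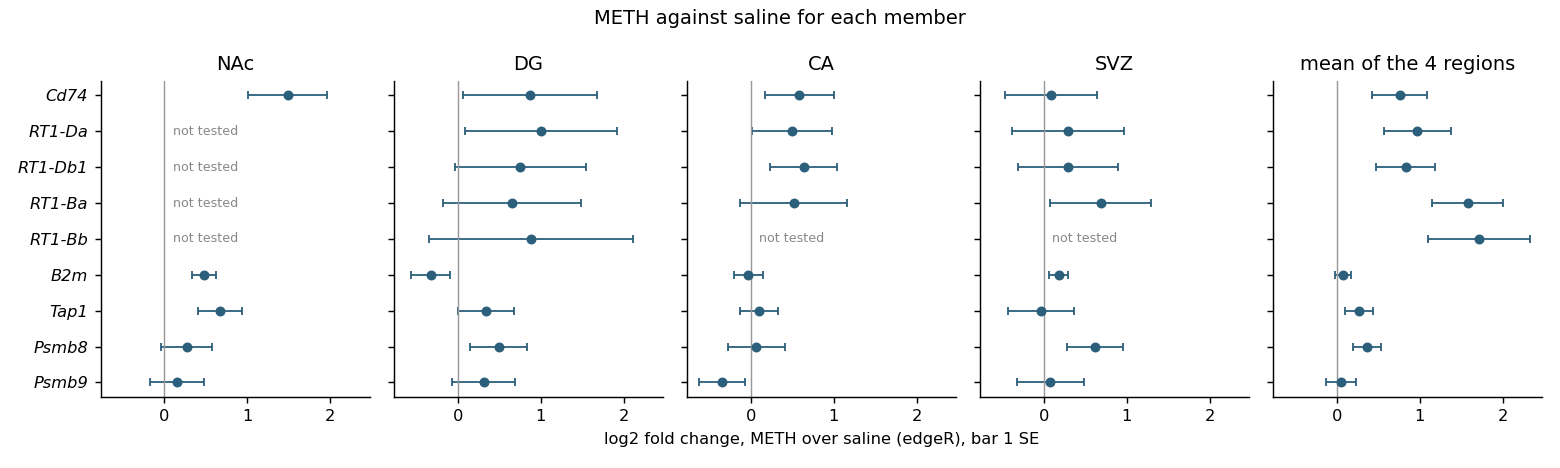
Log2 fold change of METH against saline (edgeR, bars ±1 SE) for each member in the 4 regions and as the mean of the regions; members that did not pass the filter on low counts are marked as not tested. The class II members of the mean lie between 0.75 and 1.72, while B2m and Psmb9 lie near 0.

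When the METH effect was averaged over the 4 regions in 1 fit of all 32 samples, the class II members stood highest. The fit took the samples as independent. Library numbers recur across the NAc, DG and CA, however, and whether a number marks 1 animal is not stated. The log2 fold change was 0.75 ± 0.33 for Cd74, 0.97 ± 0.40 for RT1-Da, 1.57 ± 0.43 for RT1-Ba, 1.72 ± 0.61 for RT1-Bb and 0.83 ± 0.35 for RT1-Db1. None of them passed the call rule, as the lowest FDR was 0.484, for RT1-Ba. The averages of RT1-Ba and RT1-Bb owe most to regions where the gene did not pass the filter on its own: in the same fit RT1-Ba was at 4.46 in the NAc, and RT1-Bb at 3.01 in the NAc and 2.46 in the CA, while in the fits of single regions where they passed the differences were 0.52 to 0.69 for RT1-Ba and 0.88 for RT1-Bb. RT1-Bb had 10 reads or more in 8 of 16 METH and 2 of 16 saline samples, so it passed the filter of this fit mainly through METH samples, and its value is a description. Of the 8 other members tested, 5 (Cd74, RT1-Da, RT1-Ba, RT1-Db1 and Psmb8) had an unadjusted p under 0.05, all with higher values in METH, against 7.83% of 16122 genes (4.29% with higher values), and 0 were called, as were 0.0% of all genes. With RT1-Bb there were 6. By limma voom with the library number as a random block, 4 of the 9 had an unadjusted p under 0.05, beside 6.93% of all genes. DESeq2 called 1 gene, not a member, and had 5 members at an unadjusted p under 0.05 (6.14% of all genes). The median log2 fold change of the 9 members was 0.75, and that of all genes 0.0072. All 9 members had a value above 0, as did 52.3% of all genes. As the class II genes moved together, these counts are not of independent genes.

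This average rested on few samples. Without NAc METH 4 or without DG METH 3, 2 members had an unadjusted p under 0.05, RT1-Bb counted, beside 7.57% and 7.11% of all genes. Without NAc METH 3 or DG Sal 3, 5 members did, beside 6.38% and 7.40% of all genes. Without METH 3 and 4 of the NAc, DG and CA, the METH samples of run RNA2, 0 members did (2.32% of all genes), and the log2 difference was -0.056 for Cd74, -0.029 for RT1-Da, 0.14 for RT1-Db1, 0.54 for RT1-Bb and 0.80 for RT1-Ba. Without the 8 samples above 100 CPM of Ttr the differences were larger, with 1.29 for Cd74 and 2.01 for RT1-Ba (edgeR FDR = 0.22 for both), and 5 members had an unadjusted p under 0.05 (13.2% of all genes). A test of whether the METH effect differed between regions gave an unadjusted p under 0.05 for RT1-Ba (FDR = 0.576) and B2m (FDR = 0.623), against 7.74% of all genes. No member was called (FDR under 0.01), as were 0.0% of genes, and DESeq2 called 28 genes, none a member.

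Markers of cells that carry class II were set beside these values. The 12 microglial markers (Cx3cr1, P2ry12, Tmem119 and others) were all measured, and their summed level was 329 to 399 CPM in NAc Sal and 337 to 427 CPM in NAc METH, 259 to 341 CPM in DG Sal and 301 to 331 CPM in DG METH. It was 279 to 325 CPM in CA Sal, 295 to 393 CPM in CA METH, 266 to 304 CPM in SVZ Sal and 282 to 351 CPM in SVZ METH. In the samples highest in Cd74, NAc METH 4 had a microglial sum of 337 CPM, within the saline range, NAc METH 3 and CA METH 3 had the highest sums of their regions, 427 and 393 CPM, and CA METH 4 had 334 CPM. In the NAc 3 of the 12 markers had an unadjusted p under 0.05, all higher in METH, against 2.42% of all genes with higher values. In the average of the regions 5 of the 12 did, all higher in METH, against 4.29% of all genes with higher values. The median log2 fold change over the 12 in that average was 0.11, smaller than that of the class II members. The 5 markers of border macrophages (Mrc1, Cd163, Lyve1, Siglec1 and F13a1) summed to 10.9 to 14.7 CPM in NAc Sal and 12.6 to 18.4 CPM in NAc METH, and 0 of them had an unadjusted p under 0.05 in any region. The 5 markers of dendritic cells summed to 7.16 to 17.4 CPM in NAc Sal and 9.64 to 22.8 CPM in NAc METH, but Itgax had at most 7 reads in a sample and Xcr1 was at 0 in 19 samples.

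Of the 6 T cell markers, Cd3d and Cd3g had at most 2 reads in a sample, Cd2 at most 3 and Cd8a at most 7. Cd4 had 45 to 198 reads in every sample, and Cd3e had a median of 1.5 reads but up to 216 in a sample. The T cell sum was 3.71 to 14.1 CPM in all samples but DG METH 2 and 4, which held 21.02 and 18.8 CPM with Cd74 at 6.28 and 14.6 CPM. Of B cells, Ms4a1 had at most 2 reads and Cd79b at most 3, and of neutrophils S100a8 had at most 4. Markers of other tissues were high in some samples with much Cd74 and not in others. The 5 meningeal markers (Dcn, Lum, Col1a1, Col1a2 and Igf2) summed to 27.1 to 34.5 CPM in NAc Sal. In NAc METH 1 to 4 the sums were 29.3, 23.6, 55.4 and 132 CPM. In the DG they were highest in Sal 4 and METH 3, at 393 and 475 CPM. In the CA, METH 3 and 4 held 62.0 and 82.1 CPM, against 202 CPM in Sal 2 and 108 CPM in METH 2. In the SVZ, METH 3 held 529 CPM, but METH 4, with Cd74 at 19.1 CPM, held 24.7 CPM. The 4 astrocyte markers summed to 1355 to 1541 CPM in NAc Sal and 1717 to 3193 CPM in NAc METH, to 1427 to 1777 and 2003 to 2248 CPM in the DG, 1467 to 2127 and 1880 to 2341 CPM in the CA, and 1351 to 1809 and 1785 to 2440 CPM in the SVZ. Of the 4 endothelial markers in the annotation, Cldn5 was at 0 in every sample. Their sum was 90.8 to 144 CPM in NAc Sal and 111 to 161 CPM in NAc METH. In the CA it was 98.8 to 126 CPM in saline and 131 to 162 CPM in METH. The 5 choroid plexus markers summed to 1.96 to 15.7 CPM in NAc Sal and 3.95 to 19.5 CPM in NAc METH. Ttr was listed at 0 in NAc METH 4, and at 8.21 CPM in METH 3. The part of these tissues in the class II values was not tested.

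**Figure D4:**
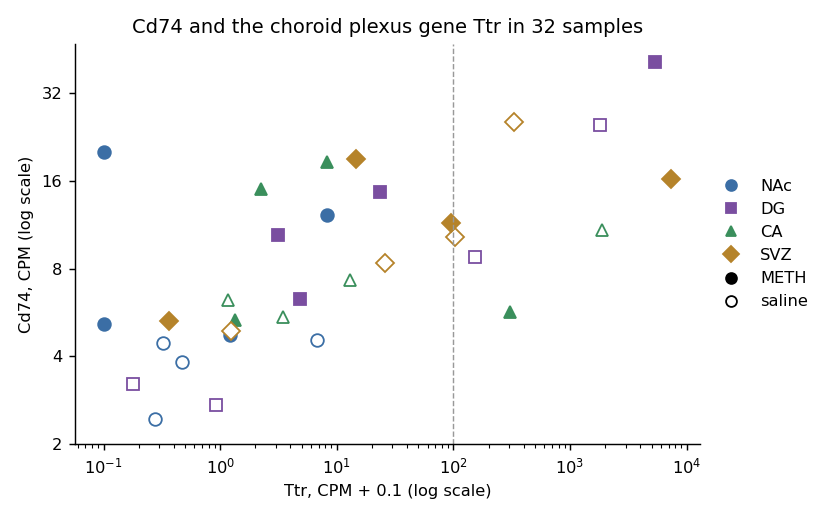
Cd74 CPM against Ttr CPM (plus 0.1) in the 32 samples, both on log axes, with the dashed line at 100 CPM of Ttr. Of the samples with the most Ttr, DG Sal 4, DG METH 3, SVZ Sal 1 and SVZ METH 3 have 16.2 to 41.0 CPM of Cd74, CA Sal 2 and CA METH 2 have 10.8 and 5.68 CPM, and NAc METH 3 and 4 and CA METH 3 and 4 have 12.2 to 20.1 CPM with 0 to 8.21 CPM of Ttr.

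Across the 32 samples, taken as deviations from the 8 group means on the log2(CPM + 1) scale, the 5 class II members followed each other closely. Pearson's r with Cd74 was between 0.847 and 0.928 for the 4 chains, and between 0.821 and 0.916 among the chains. Without the 8 samples above 100 CPM of Ttr, r with Cd74 was 0.804 to 0.885 (n = 24). The class I side did not follow them as closely, with r against Cd74 of 0.417 for B2m, 0.432 for Tap1, 0.2 for Psmb8 and 0.263 for Psmb9. Tap1 and its neighbour Psmb9 had r = 0.794. The points of such a correlation share library and dissection, and genes with few reads carry counting noise, so these values are a description.

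Outside the members, the 5 genes most like Cd74 by this measure, among 16122, were AABR07065113.1 (r = 0.855), Stat4 (0.818), Rbpms (0.814), Bckdhb (0.812) and Crispld2 (0.794). AABR07065113.1 was at 1.27 CPM at most, while Stat4, a transcription factor of cytokine signalling, was at 26.2 to 60.5 CPM. The 5 most like B2m were Nmi (0.749), an interferon-induced partner of STAT proteins, Serping1 (0.745), the C1 inhibitor of complement, RGD1565989 (0.742), Fn3krp (0.742) and Ftl1 (0.734).

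On the class I side, B2m and Tap1 were the members with the largest differences in the NAc. B2m was at 102, 122, 89.4 and 87.7 CPM in NAc Sal 1 to 4 and at 142, 118, 167 and 126 CPM in NAc METH 1 to 4. METH 2 lay below Sal 2 and the other METH samples above all saline samples. METH was higher by 0.48 ± 0.15 on the log2 scale (edgeR FDR = 0.999), and by 0.37 without NAc METH 3, 0.56 with the run as a covariate and 0.38 without METH 3 and 4, where the unadjusted p was above 0.05. The highest samples were METH 3 and METH 1.

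Tap1, the measurable chain of the peptide transporter, was at 2.19, 4.01, 3.05 and 2.79 CPM in NAc Sal 1 to 4 and at 3.29, 3.87, 5.98 and 5.75 CPM in NAc METH 1 to 4. The 2 highest samples were again METH 3 and 4, and METH 1 and 2 lay within the saline range. The log2 fold change was 0.67 ± 0.27 (edgeR FDR = 0.999), and 0.53 without METH 3, where the unadjusted p was above 0.05. The immunoproteasome subunits of the NAc were closer, with 0.27 ± 0.31 for Psmb8 and 0.15 ± 0.33 for Psmb9.

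In the other regions the class I members lay near the saline level. The log2 fold change of B2m was -0.32 ± 0.24 (DG), -0.032 ± 0.17 (CA) and 0.18 ± 0.12 (SVZ), none with an unadjusted p under 0.05. In the DG its highest value was 241 CPM in Sal 4, against 107 to 151 CPM in METH. The log2 fold change of Tap1 was 0.34 ± 0.34, 0.099 ± 0.23 and -0.034 ± 0.40 in the DG, CA and SVZ, and its highest values, 9.11 CPM in DG METH 3 and 6.90 CPM in SVZ METH 3, were in samples high in Ttr. Psmb8 was higher by 0.50 ± 0.34 in the DG and 0.62 ± 0.33 in the SVZ, and by 0.36 ± 0.16 in the average of the regions (edgeR FDR = 0.609), at 7 to 39 reads a sample. For Psmb9 the values were 0.31 ± 0.38 (DG), -0.34 ± 0.28 (CA) and 0.079 ± 0.40 (SVZ).

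**Figure D5:**
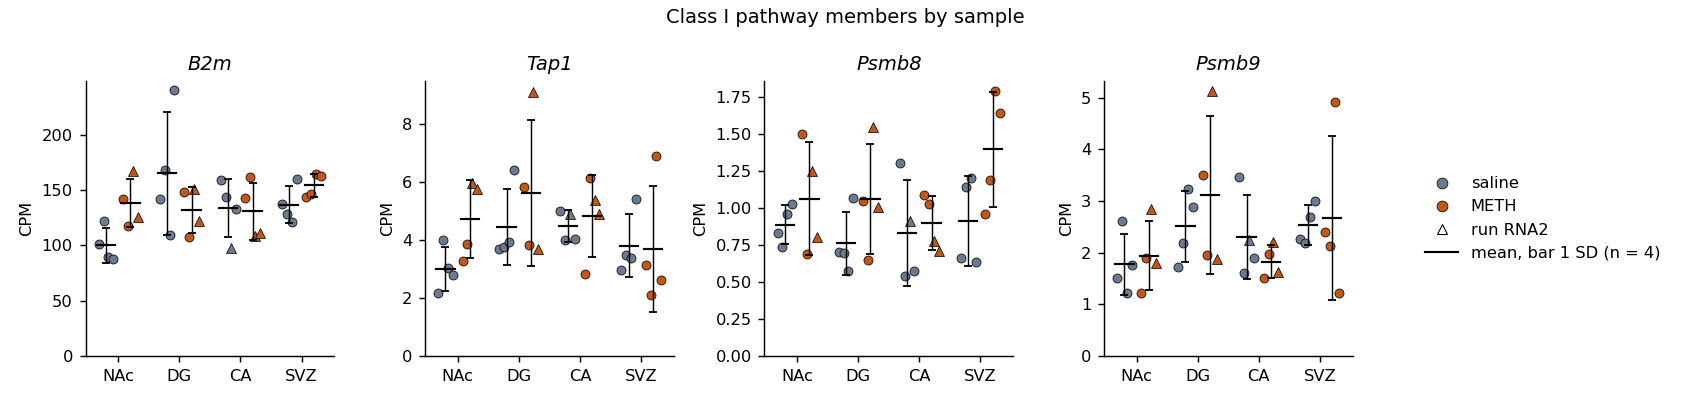
CPM of B2m, Tap1, Psmb8 and Psmb9 (1 panel each) by region, with saline samples in grey and METH samples in orange; each point is 1 sample, triangles are samples of run RNA2, the line is the group mean and the bar 1 SD (n = 4). In the NAc B2m lies at 87.7 to 122 CPM in saline and 118 to 167 CPM in METH, and the groups overlap for all 4 genes in every region.

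Without METH, the NAc had the least class II of the 4 regions. In saline samples Cd74 was at 3.81 ± 0.969 CPM (NAc), 7.47 ± 2.36 CPM (CA), 9.90 ± 10.4 CPM (DG) and 12.3 ± 9.12 CPM (SVZ; mean ± SD, n = 4). Neighbours in this order did not differ beyond their spread, with edgeR FDR of 0.374 (CA and NAc), 0.866 (CA and DG) and 0.824 (SVZ and DG). RT1-Ba was at 0.0585 ± 0.0718 CPM (NAc), 0.662 ± 0.337 CPM (CA), 1.12 ± 0.551 CPM (SVZ) and 1.17 ± 1.30 CPM (DG). The differences from the NAc on the log2 scale were 3.36 ± 1.03 (CA, edgeR FDR = 0.0701), 4.13 ± 0.99 (SVZ, FDR = 0.11) and 4.17 ± 1.00 (DG, FDR = 0.354), each at an unadjusted p under 0.05, as 24.1%, 12.6% and 11.5% of all genes had in the same comparisons. No member was called in them, and 0.0% of all genes were. RT1-Da showed the same order of the NAc below the others, with log2 differences of 1.84 ± 0.79 (CA, FDR = 0.168), 2.35 ± 0.78 (SVZ, FDR = 0.239) and 2.47 ± 0.79 (DG, FDR = 0.354). Without DG Sal 3 the difference of the DG from the NAc was 1.68 for Cd74, 2.76 for RT1-Da (FDR = 0.0719) and 4.54 for RT1-Ba (FDR = 0.024), none called. Markers of other tissues differed between these regions too. The meningeal markers had a median log2 difference from the NAc of 2.38 (DG), 1.17 (CA) and 0.83 (SVZ) over the 4 tested, and the choroid plexus markers of 4.09, 4.03 and 2.88 over 5. Their part in the class II levels was not tested.

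The test over all 4 regions called 0 of the 8 members tested by edgeR (FDR under 0.01), as it did 0.0% of 15515 genes, and RT1-Ba (FDR = 0.062), B2m (FDR = 0.149) and RT1-Da (FDR = 0.16) had an unadjusted p under 0.05, against 26.7% of all genes. RT1-Bb did not pass the filter. DESeq2 called 1459 genes, RT1-Ba among them (FDR = 0.00293). Without DG Sal 3, edgeR called 463 genes over the 4 regions, none a member (RT1-Ba FDR = 0.0224). Without the samples above 100 CPM of Ttr, the difference of the DG from the NAc was -0.36 for Cd74, 0.75 for RT1-Da and 2.18 for RT1-Ba, while that of the SVZ was 4.11 for RT1-Ba (edgeR FDR = 0.0971). Psmb8 did not differ beyond its spread between regions, with means from 0.761 ± 0.214 CPM (DG) to 0.910 ± 0.305 CPM (SVZ; edgeR FDR = 0.917 over the 4 regions).

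Of 55 other genes of the pathway, 43 were in the annotation. They were the class I heavy chains (13 of 24 in the annotation), helpers of peptide loading (6), constitutive proteasome subunits and activators (6), class II processing genes (8), co-stimulators (3) and regulators (7 of 8). None was called in any region. Between METH and saline, 0 of 35 tested had an unadjusted p under 0.05 in the NAc, 1 of 35 in the DG, 1 of 34 in the CA and 1 of 35 in the SVZ, each higher in METH. These were Ifi30 in the DG (log2 fold change 0.44 ± 0.19), the thiol reductase of the class II compartment, Tapbpl in the CA (0.39 ± 0.15), a peptide editor of class I, and RT1-S3 in the SVZ (0.55 ± 0.20), a non-classical class I heavy chain. Of all genes, 6.35% in the DG, 4.37% in the CA and 1.19% in the SVZ were higher in METH at that p. In the average of the regions 3 of 37 did, all higher in METH, a share near the 7.83% of all genes at that p. These were Ifi30 (0.37 ± 0.12, edgeR FDR = 0.516), Ciita (0.80 ± 0.26, FDR = 0.516) and Calr (0.13 ± 0.060, FDR = 0.622), a chaperone of class I. Ciita had 10 reads or more mostly in METH samples. It thus passed the filter of this fit mainly through them, and its value is a description. The 3 genes were chosen for naming after their values were seen.

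Ciita, the co-activator of class II, had between 2 and 24 reads a sample. In the NAc it had 2, 5, 5 and 3 reads in saline and 6, 10, 6 and 12 reads in METH, and in the SVZ 5, 5, 5 and 3 reads in saline and 5, 11, 15 and 10 reads in METH. It had 10, 5, 5 and 3 reads in CA saline and 2, 7, 15 and 14 in CA METH. In CPM the groups overlapped in the NAc (0.151 to 0.436 in saline, 0.417 to 0.861 in METH) and in the CA. In the SVZ they did not, at 0.173 to 0.241 CPM in saline and 0.266 to 0.690 CPM in METH, but METH 1 held as many reads as 3 of the saline samples. Of all genes in the SVZ, 0.847% had every METH sample above every saline sample. In the DG its most reads were in Sal 4 (13) and METH 3 (24), the samples highest in Cd74. By group, the median log2 fold change in the NAc was 0.32 for the class I heavy chains, with 12 of 12 above 0, 0.14 for peptide loading, 0.016 for the proteasome and 0.18 for class II processing, while 57.8% of all genes tested lay above 0. In the DG and CA the heavy chains had medians of 0.030 and 0.043, and in the SVZ of 0.33.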

How the data were processed

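RNA-seq samples of 4 regions were analysed from the deposited counts, whole numbers of reads per gene that the authors made without normalization. Per the submitters' processing notes and the file headers, reads were trimmed with cutadapt 2.7, checked with FastQC 0.11.4, mapped to rn6 with STAR 2.5.2b and counted with featureCounts 1.6.3, with no regard to strand. The headers name an Ensembl annotation and the methods a UCSC one. No member is among the 171 names placed on several chromosomes.

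Groups were taken from the labels. The METH effect in each region was tested with the quasi-likelihood F test of edgeR, after upper-quartile normalization and filterByExpr (minimum count 10), with FDR over all genes tested. Calls needed an FDR under 0.01 with a fold change of over 1.5 (over 2 between saline regions). All 32 samples were fitted together for the average and the difference of the METH effects, and the 16 saline samples for the regions. Members under the filter were compared by exact permutation of mean CPM. Genes named are the 10 members, the 2 pathway genes of largest change at an unadjusted p under 0.05 in each region, and the 5 genes most like Cd74 and B2m. Any other gene, markers aside, is said to be chosen after seeing its values. The members and lists were chosen with earlier results of these data known.

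The alternatives were TMM, no filter or another filter, DESeq2, limma voom with the library number as a block, 2 RUVr factors (written anew from the published steps), the replicate block, the sequencing run, another threshold, leaving out each sample, and leaving out DG replicates 1 and 2. Leaving out METH 3 and 4, METH 1 and 2, or the samples above 100 CPM of Ttr was chosen after seeing the data. Pairing by replicate number was checked between METH and saline within a region and between saline samples of 2 regions. Among these, only the NAc and CA saline samples, which share library numbers, had r above 0 in all 4 pairs (0.12 to 0.24 over genes). DG Sal 3 and 4 share their numbers with these regions too. Their r was 0.25 and -0.014 with the NAc and 0.067 and 0.019 with the CA. Samples of unlike numbers were not compared, so pairing is not shown. METH samples were not compared across regions. No 2 samples of a group were alike within counting noise: over 48 pairs, chi-square per degree of freedom was 15.4 to 178. Intervals of reads cover counting error only.

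The tests ran in R 4.3.3 (DESeq2 1.42.0, edgeR 4.0.16, limma 3.58.1), and tables and plots were made in Python 3.11.15 (scipy 1.17.1, pandas 2.3.3, matplotlib 3.10.9, numpy 2.4.6). The procedures were tested on simulated data. These gave every gene the same spread, held no run or tissue effects, and changed only genes above a set mean of reads. The recovery below therefore does not tell how often a change would be called in members with few reads or a wide spread. Of 100 genes changed 4-fold among 14706 to 15865, 98 were recovered for the difference between regions and 100 in every other comparison. Of 100 changed 2-fold, 61 (NAc), 47 (DG), 70 (CA), 60 (SVZ), 100 (average), 19 (difference between regions) and 68 (saline regions) were.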

Additional observations from a re-analysis of the deposited data

Results flagged for a closer look

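In 70 groups of 4 samples of a member that were examined, 5 held a sample whose gap to the nearest other, divided by the range of the group, was above Dixon's 95% critical value. If the groups were independent, chance alone would give about 1 in 20. They share samples and the class II genes moved together, so 5 among 70 cannot be judged by that rate. Of the 5, 3 were in DG Sal 4: RT1-Da at 6.33 CPM, RT1-Bb at 2.14 CPM and Tap1 at 6.41 CPM. RT1-Da in SVZ Sal 1, at 4.91 CPM, and RT1-Db1 in DG METH 3, at 6.29 CPM, were the others. Ttr was at 1803 CPM in DG Sal 4, 329 CPM in SVZ Sal 1 and 5378 CPM in DG METH 3. Its part in these values was not tested.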

How the results depend on the processing

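Single samples often held fewer than 10 reads of a class II chain, groups held 4 samples, and run, library number and METH overlapped. No METH difference of a member passed the call rule under any alternative, and of 1505 alternative values of 63 member differences, 1443 kept their direction and 62 did not.

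Over all genes, where the counts called were 0, DESeq2 called 1 gene in the NAc, 176 in the DG, 10 in the CA, 2 in the SVZ, 1 in the average of the regions, 28 for the difference between regions and 1459 between saline regions, where RT1-Ba was among them. With RUVr factors 162 were called in the DG, 18 in the SVZ and 76 for the difference between regions. At an FDR under 0.05 with no fold threshold 1 was called in the DG. Between saline regions 177 were called without DG replicates 1 and 2, whose library numbers are crossed, 1 by limma voom with the library number as a random block, and 0 to 463 when each sample was left out in turn (463 without DG Sal 3). Leaving out each sample gave 0 to 1 for the difference between regions. The causes were not tested.

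The 3 members of the NAc at an unadjusted p under 0.05 (3.39% of all genes) became 7 with no filter (3.22%), 7 with DESeq2 (2.78%), 6 in the fit of all 32 samples (2.7%) and 7 with RUVr factors (5.99%), where more members were tested. They became 1 with the sequencing run as a covariate (1.88%), 0 without METH 3 and 4 (3.04%), 6 without METH 1 and 2 (4.30%), and 2 to 5 when each sample was left out (5 without METH 2). The 6 in the average of the regions (7.83%) became 4 by limma voom with the library number as a random block (6.93%). They became 0 without METH 3 and 4 (2.32%) and 2 to 6 when each sample was left out. In the DG, where there were 0, there were 4 without Sal 4 (12.2%) and 3 without the samples high in Ttr (10.4%). In the CA, also 0, there were 1 with no filter (5.73%), DESeq2 (4.86%) or the run as a covariate (5.32%), 2 without METH 1 and 2 (9.53%) and 3 without the samples high in Ttr (6.06%). In fits such as the NAc without METH 1 and 2, chains with few saline reads passed the filter mainly through METH samples. These counts of members are therefore a description.

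The replicate numbers were tried as a block. METH and saline samples with the same number did not deviate together (r from -0.77 to 0.40), so they share only a number. With the replicate block the 6 members in the average of the regions became 3 (7.44% of all genes), and Psmb9 became -0.075 in the SVZ and -0.015 in the average. No call changed with the block, and the 0 genes called between CA and NAc saline samples, which share library numbers, stayed 0.

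The following log2 differences turned direction, none of them called. Without METH 3 and 4 those of the DG became -0.24 for Cd74, -0.31 for RT1-Da, -0.31 for RT1-Ba, -0.18 for RT1-Bb and -0.073 for RT1-Db1, those of the CA -0.44 for Cd74, -0.34 for RT1-Da and 0.19 for B2m, that of Psmb9 in the NAc -0.19, and those of the average -0.056 for Cd74, -0.029 for RT1-Da and -0.11 for Psmb9. Without METH 1 and 2, Psmb8 became -0.19 in the CA. With the run as a covariate B2m became 0.21 in the DG and 0.18 in the CA, and Psmb9 -0.25 in the DG. This fit was not run in the SVZ, whose samples were treated as 1 run. Without the samples high in Ttr, B2m became 0.00073 and Psmb9 -0.026 in the DG, Tap1 -0.089 and Psmb8 -0.16 in the CA, Psmb9 -0.44 in the SVZ and -0.21 in the average, and in saline samples Cd74 became -0.36 between DG and NAc and Psmb8 0.091 between CA and NAc. The latter became 0.0011 with TMM and 0.0064 with DESeq2. By limma voom with the library number as a random block, Psmb9 became -0.00044 in the average and Psmb8 -0.011 between SVZ and NAc.

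Leaving out each sample in turn gave a range that crossed 0 for Psmb9 in the NAc (-0.10 to 0.39), RT1-Db1 (-0.050 to 1.85) and Psmb9 (-0.039 to 0.49) in the DG, and for 5 members in the CA: B2m (-0.16 to 0.067), RT1-Da (-0.091 to 0.83), RT1-Ba (-0.053 to 0.90), Tap1 (-0.035 to 0.28) and Psmb8 (-0.086 to 0.38). In the SVZ it did so for Cd74 (-0.18 to 0.73), RT1-Da (-0.14 to 1.10), Tap1 (-0.53 to 0.18), Psmb9 (-0.41 to 0.32) and the ratio of mean CPM of RT1-Bb (-0.36 to 1.06). It did so too for Psmb9 in the average (-0.075 to 0.11) and, in saline samples, for Psmb8 between CA and NAc (-0.37 to 0.086) and between SVZ and NAc (-0.12 to 0.17).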

Other observations

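RT1-A2, a classical class I heavy chain chosen here after its values were seen, was low under library numbers 14 and 20 in the NAc, DG and CA, whatever the treatment. It was at 1.73 CPM in NAc Sal 1, 3.01 CPM in DG METH 1 and 2.499 CPM in CA Sal 1 (number 14), and at 2.35 CPM in NAc METH 1, 1.25 CPM in DG Sal 1 and 1.34 CPM in CA METH 1 (number 20). The other 18 samples of these regions held 3.79 to 26.1 CPM.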
